A study of Mus musculus with 3 samples.

Results

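The collagen genes of the early facial mesenchyme were described as the 44 protein-coding genes, of 55401 genes in the count tables, whose GENCODE M21 symbol is Col, a number, the letter a and a number. They comprised 11 fibrillar collagens, 6 basement membrane collagens, 9 FACITs (fibril-associated collagens with interrupted triple helices) and 18 other collagens. Counts came from 3 RNA-Seq libraries of maxillary processes dissected from E10.5 mouse embryos of the genotype *wnt1cre; Rosa26Dlx2/-*, named OE replicates 1, 2 and 3 here. In this model Cre recombinase under *Wnt1* control acts in neural crest cells, where it removes a stop cassette (LSL) in front of a Flag-tagged *Dlx2* driven by the CAG promoter at *Rosa26*. Overexpression was therefore limited to cells with a history of *Wnt1-Cre*, mainly those of the neural crest, while the dissected tissue also held epithelium, vessels and blood. The labels call the RNA samples independent without giving the number of embryos or litters, so the spread between libraries may be in part technical. Wild-type libraries were not analysed here, and no difference between genotypes was tested.

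Collagens are secreted or membrane proteins whose α chains wind around each other into a triple helix. Fibrillar collagens assemble into the fibrils of mesenchyme, cartilage and bone, FACITs coat those fibrils, and type IV collagens form the network of basement membranes under epithelia and around vessels. In the facial processes, the neural crest mesenchyme lays down such a matrix before cartilage and bone form in it.

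Each library held 35351031 to 40057435 counts on genes, and a count of 0 allowed a level of up to 0.0777, 0.0843 and 0.0796 counts per 1000000 counts on genes (CPM) in replicates 1, 2 and 3 (a floor of 3 counts, for counting error only). *Dlx2* was at 235, 201 and 183 CPM, and these counts do not separate the *Rosa26* allele from the endogenous gene. Mesenchyme markers were high in every library, with *Prrx1* at 419 to 629 CPM and *Twist1* at 317 to 464 CPM, but the tissue was not mesenchyme alone. The libraries differed in other tissues: summed neuron markers were at 228, 23.0 and 32.9 CPM, optic vesicle markers at 8.52, 80.8 and 83.8, pigment cell markers at 2.41, 12.8 and 98.2, and surface epithelium markers at 373, 242 and 235. *Xist* was at 671 CPM in replicate 1 and under 1 CPM in the others, whereas Y-linked genes had 0 counts in replicate 1 and summed to 146 and 109 CPM in replicates 2 and 3. In bulk tissue, fewer cells of a type and less RNA per cell cannot be told apart.

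Collagen transcripts of every type were present at this stage, with *Col2a1* the highest. Of the 44 genes, 35 reached 10 counts in each of the libraries: 11 of 11 fibrillar, 4 of 6 basement membrane, 7 of 9 FACIT and 13 of 18 other genes. The 9 below that limit were *Col4a3*, *Col4a4*, *Col6a4*, *Col6a5*, *Col6a6*, *Col8a1*, *Col10a1*, *Col14a1* and *Col19a1*. They include *Col10a1*, the collagen of hypertrophic cartilage, with 1, 0 and 1 counts, and *Col4a3* and *Col4a4*, chains of the mature kidney glomerulus, with at most 8 and 25 counts in a library. All collagen genes together took 0.355%, 0.363% and 0.335% of the counts on genes (0.351% ± 0.0146, SD, n = 3). Their summed level was close in the 3 libraries in CPM, at 3364, 3608 and 3561.

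**Figure D1:**
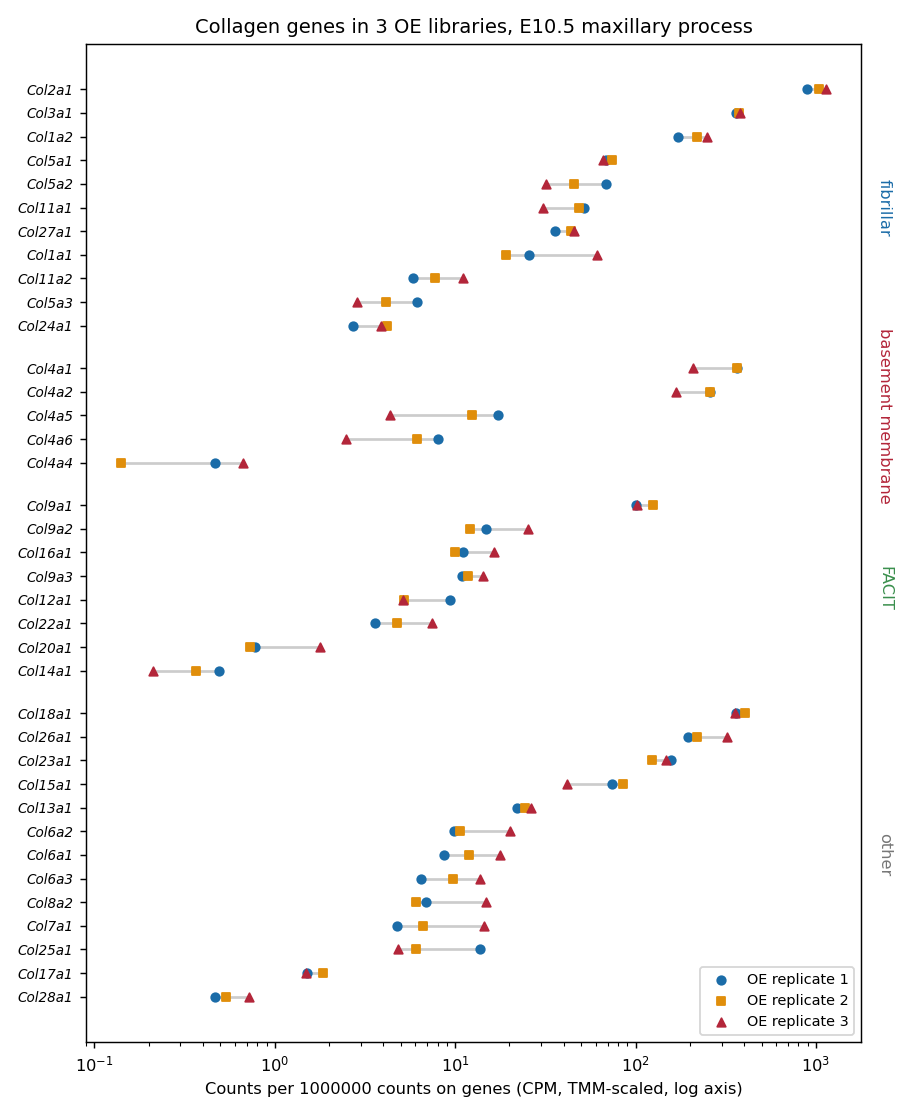
Level of 37 collagen genes (mean count of 10 or more) in OE replicates 1, 2 and 3 (CPM with TMM scaling, log axis), grouped by collagen type, with a grey line from the lowest to the highest library. *Col2a1* is the highest gene at 896 to 1139.9 CPM, and replicate 3 is the lowest library for *Col4a1*, *Col4a2*, *Col4a5* and *Col4a6*.

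The balance between types differed more than the total. Fibrillar genes summed to 1695, 1884 and 2022 CPM, FACIT genes to 151, 169.9 and 173 CPM, and other genes to 865, 911 and 984 CPM. Basement membrane genes summed to 652, 643 and 383 CPM, a ratio of 1.70 between the highest and the lowest library, against 1.14 to 1.19 for the other types. On the CPM scale replicate 3 was thus the lowest library for basement membrane collagens and the highest for fibrillar and other collagens. Its FACIT sum was close to that of replicate 2, and with total counts in place of TMM scaling, a setting chosen after seeing the data, replicate 2 was the highest for FACIT genes (160.0, 171 and 163 CPM). With total counts replicate 3 was only slightly above replicate 2 for fibrillar (1790, 1897 and 1901 CPM) and other genes (913, 917 and 925 CPM). For basement membrane genes it was still the lowest (689, 648 and 360 CPM).

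**Figure D2:**
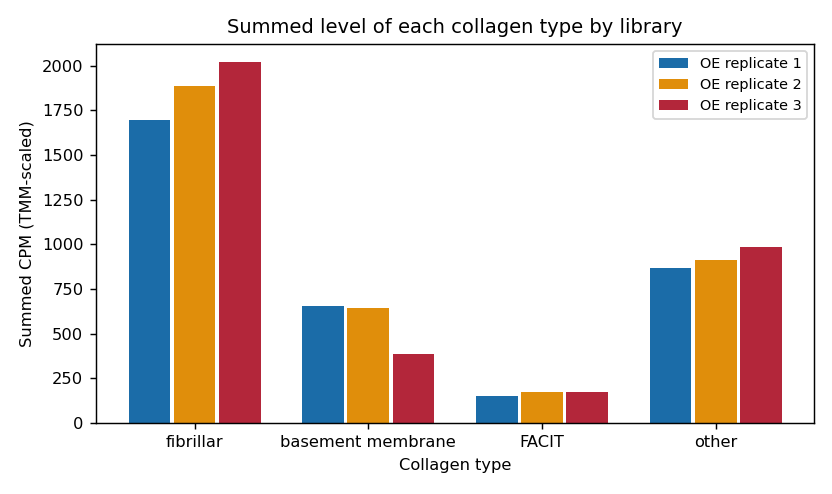
Summed CPM (TMM scaling) of the genes of each collagen type, with 1 bar for each OE library and no averaging. The basement membrane bar of replicate 3 stands at 383 CPM beside 652 and 643 CPM, while the fibrillar bars run from 1695 to 2022 CPM.

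To compare genes of unequal length, levels were also expressed as TPM, a level per length of transcript scaled to a total of 1000000 in each library, from the union of the exons of each gene. On this scale the collagen genes summed to 1587, 1445 and 1110.0 TPM, so that, unlike in CPM, replicate 3 was the lowest library. Fibrillar genes made up 41.4%, 43.1% and 47.6% of collagen TPM in replicates 1, 2 and 3 (44.0% ± 3.25, SD, n = 3). Basement membrane genes made up 21.7%, 20.1% and 12.2% (18% ± 5.04), FACIT genes 7.61% ± 0.503 and other genes 30.4% ± 1.41 (SD, n = 3). The length used moved these shares by more than the spread between libraries for the first 3 types. With the longest coding transcript of each gene in place of the union, the mean shares were 50.1%, 12.6%, 6.18% and 31.1%.

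By mean TPM the order was *Col2a1* (344 ± 30.2, SD, n = 3), *Col18a1* (168 ± 35.5), *Col4a1* (137 ± 59.6), *Col3a1* (119 ± 20.7), *Col4a2* (112 ± 43.0) and *Col26a1* (91.5 ± 6.63). *Col2a1* alone held 24.9% of collagen TPM and was above every other collagen gene in each library, at 309 to 362 TPM against at most 193 for *Col18a1*. *Col18a1* was second in each library, and the order of the next 4 differed between libraries. The order below *Col2a1* turned on the length used: with the longest coding transcript *Col2a1* was still first (430.2 mean TPM), but *Col26a1* was second at 186, ahead of *Col18a1* and *Col3a1* (both 145), *Col4a1* (106), *Col1a2* (84.7) and *Col4a2* (79.2). Among all genes of the tables *Col2a1* ranked 391 by mean TPM, and *Col1a1*, the main chain of bone and skin collagen, ranked 7253.

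Among the fibrillar genes, *Col2a1* (ENSMUSG00000022483, chr15:97975602-98004695 of mm10, minus strand) encodes the type II collagen of cartilage. It had 34577, 37124 and 42942 counts, or 896, 1043 and 1139.9 CPM. Markers of formed cartilage were near 0 beside it: *Acan* was at 0.186 to 0.518 CPM, *Matn1* at no more than 0.0562 CPM, *Comp* at 0.130 to 0.506 CPM and *Snorc* at 0 counts in every library. *Sox9*, a regulator of the cartilage lineage that acts upstream of *Col2a1*, was at 114, 93.9 and 80.5 CPM. *Col2a1* was thus highest in replicate 3 on the CPM scale, but lowest there on the TPM scale, at 362, 361 and 309 TPM, whereas *Sox9* was lowest there on both. Partner chains of type II fibrils were far lower per length, at 11.1 mean TPM for *Col11a1* and 3.61 for *Col11a2*. *Col11a1* was at 51.8, 48.3 and 30.8 CPM and *Col11a2* at 5.83, 7.75 and 11.1 CPM. These chains went in opposite directions across the libraries, *Col11a1* being lowest and *Col11a2* highest in replicate 3.

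*Col3a1* (ENSMUSG00000026043, chr1:45311538-45349706, plus strand), the collagen of soft connective tissue, had the lowest ratio between libraries of the members tested on the CPM scale. Its values were 363, 375 and 379.7 CPM, a ratio of 1.05. On the TPM scale it was at 138, 122 and 97.0, lowest in replicate 3. *Col1a2*, the second chain of type I collagen, was at 172, 220.0 and 248 CPM. *Col1a1* (ENSMUSG00000001506, chr11:94936224-94953042, plus strand) had 988, 682 and 2313 counts, or 25.6, 19.2 and 61.4 CPM, a ratio of 3.20. Replicate 3 therefore stood apart for *Col1a1*, although its partner *Col1a2* differed by a ratio of 1.45 only. Bone markers were low in all libraries, *Sp7* at 2.56 to 3.77 CPM and *Dmp1* at 1, 0 and 0 counts. *Ibsp* was at 0.207, 1.80 and 0.770 CPM and *Bglap* at 0.207, 0.562 and 1.49 CPM, so these low levels differed between libraries.

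Type V collagen sets the diameter of type I fibrils. *Col5a1* was steady, at 68.7, 73.9 and 66.3 CPM. *Col5a2* fell on the other side, with 68.3, 45.4 and 31.9 CPM, a ratio of 2.14, and *Col5a3* had the same order of libraries, with 6.17, 4.13 and 2.84 CPM. *Col5a2* lies on chromosome 1 next to *Col3a1*, with 24614 bp between them and on the opposite strand, and differed more between libraries than it on the CPM scale. The other fibrillar genes were *Col27a1*, at 35.9 to 45.3 CPM, and *Col24a1*, at 2.72 to 4.19 CPM.

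Basement membrane collagens were lowest in replicate 3 for the 4 genes that reached 10 counts in each of them. *Col4a1* (ENSMUSG00000031502, chr8:11198423-11312826, minus strand) had 14178, 12983 and 7815 counts, or 367, 365 and 207 CPM. *Col4a2* (ENSMUSG00000031503, chr8:11312805-11449287, plus strand) was at 259, 259.8 and 168 CPM. Replicates 1 and 2 were almost equal for both chains, and replicate 3 was lower by a ratio of 1.77 and 1.55. These chains form the common α1α1α2 trimer of early basement membranes.

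*Col4a5* (ENSMUSG00000031274, chrX:141475385-141689234, plus strand) had 668, 441 and 163 counts, or 17.3, 12.4 and 4.33 CPM. *Col4a6* (chrX:141165403-141474076, minus strand) had 310, 218 and 93 counts, or 8.03, 6.12 and 2.47 CPM. Their ratios between libraries, 4.0 and 3.25, were the highest of the members with a mean count of at least 100. Both encode chains of epithelial and smooth muscle basement membranes. Both are X-linked and were highest in the library with *Xist*. Between replicates 2 and 3, which both carry Y-linked counts, the ratio was 2.86 for *Col4a5* and 2.48 for *Col4a6*. The part of embryo sex in these differences was not tested. *Col4a4*, with 18, 5 and 25 counts, was the only basement membrane gene tested that was highest in replicate 3 in CPM, and in TPM it was highest in replicate 1.

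Markers of the cells that lie on basement membranes varied in the same libraries. Of 8 surface epithelium markers, 6 were lower in replicate 3 than in the mean of the others, among them *Cdh1* at 48.1, 32.5 and 13.4 CPM, *Trp63* at 55.4, 29.6 and 11.4 CPM and *Grhl2* at 27.2, 13.9 and 7.35 CPM. *Krt18* and the low *Krt5* went the other way, at 86.7, 65.5 and 108 CPM and at 0.440, 0.478 and 1.25 CPM. *Krt8*, among the 6, was lowest in replicate 2, at 83.2, 49.3 and 59.2 CPM. Of 6 endothelium markers 4 were lower, with *Cdh5* at 77.7, 87.9 and 49.1 CPM and *Kdr* at 77.6, 84.1 and 37.3 CPM, while *Tie1* and *Emcn* were highest in replicate 3 in CPM. *Pecam1*, among the 4, was at 41.7, 45.1 and 41.7 CPM, with replicates 1 and 3 level. Of all genes tested 45.6% were lowest in replicate 3. Summed endothelium markers were at 292, 325 and 241 CPM. The part of these cells in the type IV difference was not tested.

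*Col4a1* and *Col4a2* stand head to head, and their start sites are 21 bp apart. The 300-base promoter windows of RefSeq (GRCm38.p6, 250 bases before to 50 after each start) are shown because they overlap by 78 bases, which are in capitals and are the same stretch read from opposite strands. *Col4a1* is chr8:11312777-11313076 on the minus strand and *Col4a2* is chr8:11312555-11312854 on the plus strand.
Col4a1: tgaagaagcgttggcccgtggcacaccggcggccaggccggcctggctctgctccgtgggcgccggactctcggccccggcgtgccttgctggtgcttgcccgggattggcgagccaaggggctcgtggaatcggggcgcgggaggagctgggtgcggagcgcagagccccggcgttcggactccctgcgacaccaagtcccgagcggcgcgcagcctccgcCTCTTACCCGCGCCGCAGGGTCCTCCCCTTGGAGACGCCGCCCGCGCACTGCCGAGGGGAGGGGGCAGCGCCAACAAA
Col4a2: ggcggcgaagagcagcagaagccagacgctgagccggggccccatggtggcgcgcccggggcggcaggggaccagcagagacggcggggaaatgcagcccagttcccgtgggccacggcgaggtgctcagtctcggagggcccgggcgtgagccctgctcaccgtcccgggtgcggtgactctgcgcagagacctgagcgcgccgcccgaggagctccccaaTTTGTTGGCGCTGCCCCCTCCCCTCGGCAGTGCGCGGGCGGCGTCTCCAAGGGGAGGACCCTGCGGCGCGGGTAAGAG
The windows hold 37 and 33 CpG dinucleotides, 9 of them in the shared stretch, against a median of 7 over all 32851 promoter windows and 11.5 over 38 windows of 35 collagen genes. Searched on both strands, both hold GGGCGG, the core letters of a GC box, and CCAAT, and neither holds TATAAA. Of the collagen windows 60.5% hold GGGCGG, against 35.7% of all windows, while TATAAA (13.2% against 13.6%) and CCAAT (34.2% against 37.4%) were about as frequent as elsewhere. The letters are matches only and not sites. *Col4a3* and *Col4a4* start 72 bp apart and *Col4a5* and *Col4a6* 1309 bp apart in the same head-to-head arrangement, and the exons of *Col4a1* and *Col4a2* overlap at their starts, where reads could be shared, since the strand setting of the counting is not given in the sources used here.

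The FACIT genes were led by type IX collagen, which sits on type II fibrils. *Col9a1* was at 100.4, 125 and 102 CPM. *Col9a2* was at 14.9, 12.1 and 25.4 CPM, a ratio of 2.10, and *Col9a3* at 10.96, 11.7 and 14.3 CPM. Replicate 3 was thus the highest library for *Col9a2* and *Col9a3* in CPM and not for *Col9a1*. On the TPM scale it was still the highest for *Col9a2* but the lowest for *Col9a3*, at 10.6, 9.75 and 9.28 TPM. *Col22a1*, known from muscle and tendon junctions, was at 3.58, 4.78 and 7.49 CPM. Of the remaining FACIT genes, *Col16a1*, *Col12a1* and *Col20a1* were between 0.730 and 16.5 CPM, *Col14a1* had 19, 13 and 8 counts, and *Col19a1*, next to *Col9a1* on chromosome 1, had 0, 2 and 1 counts.

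Among the other genes, the multiplexins are collagens that carry heparan or chondroitin sulphate in basement membranes. *Col18a1* (ENSMUSG00000001435, chr10:77052178-77166548, minus strand), the source of the fragment endostatin, was at 363, 403 and 357 CPM, with a ratio of 1.13. *Col15a1*, its relative, was at 74.1, 85.3 and 41.8 CPM, a ratio of 2.04. *Col15a1* was thus lowest in replicate 3, as *Col4a1* was, and *Col18a1* differed less on the CPM scale.

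*Col26a1*, a short collagen of little known function, was at 195, 220.4 and 323 CPM, highest in replicate 3. Transmembrane collagens were represented by *Col23a1*, at 158, 124 and 148 CPM, and *Col13a1*, at 22.1, 24.3 and 26.4 CPM. *Col25a1*, a transmembrane collagen of neurons, was at 13.7, 6.04 and 4.83 CPM. It was highest in replicate 1, the library with the high neuron markers (228 against 23.0 and 32.9 CPM summed over 6 genes, 6 of 6 higher there). The part of neurons in this difference was not tested.

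Type VI collagen forms beaded filaments in the matrix around cells. *Col6a1* was at 8.68, 11.9 and 17.7 CPM, *Col6a2* at 9.85, 10.7 and 20.2 CPM and *Col6a3* at 6.45, 9.78 and 13.8 CPM. In CPM all 3 chains shared the order of the libraries, with replicate 3 highest and ratios of 2.03 to 2.14, whereas the other chains *Col6a4*, *Col6a5* and *Col6a6* had 2 to 9 counts in a library. *Col7a1*, which anchors epithelia to the dermis, was at 4.77, 6.63 and 14.4 CPM, and *Col8a2*, a short-chain collagen of the corneal endothelium, at 6.89, 6.10 and 14.9 CPM. Both were highest in replicate 3 by ratios of 3.02 and 2.44. *Col17a1*, the collagen of hemidesmosomes, and *Col28a1* were low at 0.466 to 1.85 CPM.

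Ratios between chains of a shared trimer were formed within each library, so that the scaling between libraries had no part in them. Of 12 pairs, 10 had at least 10 counts for both genes in every library. *Col4a1*/*Col4a2* was 1.26, 1.25 and 1.10 (1.20 ± 0.0901, SD, n = 3), on the TPM scale with the union of exons. *Col4a5*/*Col4a6* was 2.56, 2.40 and 2.08, and *Col6a3*/*Col6a1* was 0.272, 0.300 and 0.286. *Col6a1*/*Col6a2* was 1.68, 2.12 and 1.66, and 1.09 on average with the longest coding transcript. In these 4 pairs the ratio moved by a factor of 1.10 to 1.28 between libraries.

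The ratio of other pairs differed more between libraries. *Col1a1*/*Col1a2* was 0.282, 0.165 and 0.468 (0.305 ± 0.153, SD, n = 3), a spread of 2.84 between libraries. *Col5a1*/*Col5a2* was 1.14, 1.84 and 2.35, and *Col11a1*/*Col2a1* was 0.0420, 0.0336 and 0.0196. The chains of these pairs differ in GC content, at 58.0% and 49.6% and at 48.0% and 62.2%. Replicate 3 differed along GC content, as described below, and such a trend does enter a ratio within a library. *Col11a2*/*Col2a1* was 0.00875, 0.010 and 0.0131, so the minor chains of type II fibrils changed their ratio to *Col2a1* in opposite directions. The type I trimer contains more α1 than α2 chains, and the *Col1a1* transcript level was below that of *Col1a2* in every library. Length bears on that value: the union of exons of *Col1a2* is 12426 bp, and with the longest coding transcript the mean ratio was 0.145. Type IX chains varied as well, with *Col9a1*/*Col9a3* at 6.96, 8.08 and 5.45 and *Col9a2*/*Col9a3* at 1.69, 1.28 and 2.22.

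**Figure D3:**
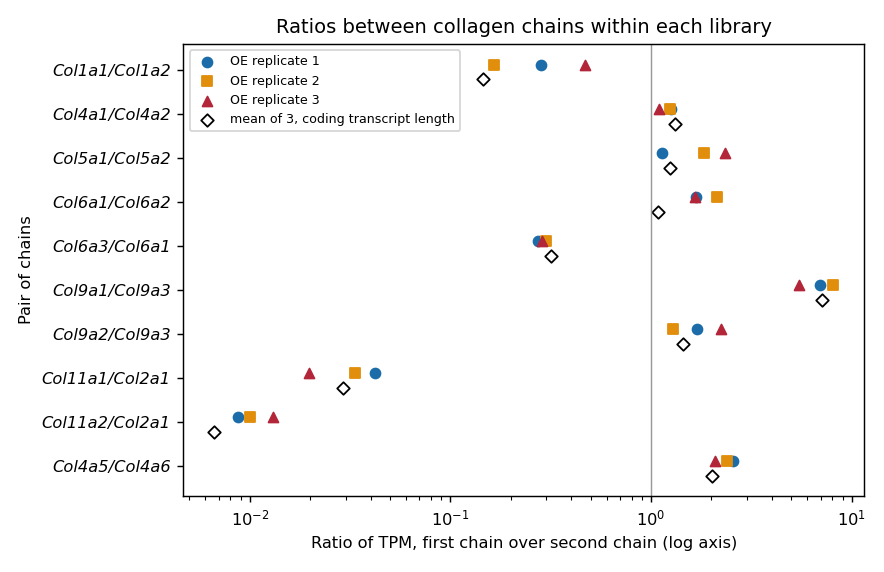
Ratio of TPM between chains of 10 pairs in each OE library (coloured points, union of exons, log axis), with the mean over the 3 libraries from the longest coding transcript as an open diamond. *Col4a1*/*Col4a2* lies between 1.10 and 1.26, and *Col1a1*/*Col1a2* spreads from 0.165 to 0.468.

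Whether the 3 libraries agreed within counting error was tested for the 37 members whose mean count was 10 or more. In 34 of them (91.9%) the counts differed beyond counting noise (chi-square test against the TMM-scaled library sizes, Benjamini-Hochberg adjusted over all 17115 genes tested), beside 81.5% of all genes tested. The exceptions were *Col14a1*, *Col17a1* and *Col28a1*, with adjusted p of 0.142, 0.404 and 0.356 in this chi-square test. Counting noise is a narrow reference at this depth, since even *Col3a1*, with its ratio of 1.05, had an adjusted p of 0.000629 in the same test. The test compares libraries of 1 genotype and not conditions.

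A ratio of 2 or more between the highest and lowest library was found for 17 of the 37 members (45.9%), beside 34.8% of all genes tested and 26.9% of 10004 genes within the members' range of exonic length. By type these were 3 of 11 fibrillar, 3 of 5 basement membrane, 4 of 8 FACIT and 7 of 13 other genes. The median ratio was 1.83 over the members, 1.69 over all genes and 1.58 over the genes of similar length. Without replicate 3, 2 members (5.41%) had such a ratio, beside 7.24% of all genes. The count was 9 (24.3%) without replicate 1 and 15 (39.5%) without replicate 2, beside 18.3% and 31.2% of all genes, so the share fell most without replicate 3 in members and in all genes. With total counts in place of TMM scaling it was 13 (35.1%), beside 36.7% of all genes.

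Members were then set against the mean of the other 2 libraries on log2 CPM (prior count of 2), with a difference of at least 2-fold. In replicate 3, 5 members were higher (*Col1a1*, *Col7a1*, *Col8a2*, *Col20a1* and *Col4a4*), beside 12.6% of all genes tested, and 2 were lower (*Col4a5* and *Col4a6*), beside 10%. In replicate 1, 3 were higher (*Col4a5*, *Col4a6* and *Col25a1*), beside 5.57%, and 1 was lower (*Col7a1*), beside 6.69%. In replicate 2, 0 were higher, beside 2.08%, and 2 were lower (*Col1a1* and *Col4a4*), beside 2.72%. For replicate 3 these were 13.5% of members higher and 5.41% lower, beside 4.83% and 11.8% of the genes of similar exonic length.

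The types leaned apart in replicate 3. The median log2 difference of replicate 3 from the others was 0.19 over the 37 members, 0.19 over fibrillar, -0.82 over basement membrane, 0.49 over FACIT and 0.48 over other genes. It was -0.03 over all genes and -0.26 over genes of similar exonic length. Of the 37 members, 20 were highest in replicate 3 and 14 lowest there. Of all genes 43.2% were highest and 45.6% lowest in it, and of genes of similar exonic length 31.3% and 57.9%. Scaling by total counts alone would shift every such difference in replicate 3 by -0.13, which turns the small positive values of *Col3a1* (0.04) and *Col23a1* (0.08) negative and no median of a type. With that scaling 4 members were at least 2-fold lower in replicate 3, *Col15a1* and *Col25a1* being added, beside 13.7% of all genes. Still 5 were higher there, beside 9.56%, and *Col7a1* was no longer past the limit in replicate 1.

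Replicate 3 differed from the others along GC content and exonic length, and collagen transcripts were richer in GC at the median. Glycine and proline, the main residues of the helix, have GC-rich codons, but the part of codons was not tested. The median GC content of the 37 members was 56.4% (range 45.9% to 62.9%), against 50.1% over all genes tested. Across the members, the log2 difference of replicate 3 had a Pearson r of 0.39 and a Spearman rho of 0.34 with GC content, and across 17101 genes r was 0.38 and rho 0.44. With exonic length r was -0.19 and rho -0.15 across the members, and -0.38 and -0.44 across those genes. The part of RNA quality or library preparation was not tested. These are descriptions across genes of the same 3 libraries, and genes are not independent replicates. The 9 members of at least 60% GC had a median of 0.64, beside 0.51 for genes of that class and of similar length, and the 6 members between 45% and 50% had -0.75, beside -0.40.

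Type IV collagens lay off that line. *Col4a1* and *Col4a2*, of 57.7% and 60.6% GC, were at -0.82 and -0.63, where genes of their GC classes and similar length had medians of 0.24 and 0.51. After a smooth trend on length and GC content was removed, *Col4a1* was at -0.91, *Col4a2* at -0.85, *Col4a5* at -1.54 and *Col4a6* at -1.35, and the median of the basement membrane genes was -0.91. The medians were then 0.11 over all members tested, 0.16 over fibrillar, 0.23 over FACIT and 0.48 over other genes. *Col1a1* was at 1.29, *Col7a1* at 1.23 and *Col22a1* at 1.10 after removal. With *Col20a1* and *Col4a4* these made 5 members at least 2-fold higher in replicate 3, and *Col4a5*, *Col4a6*, *Col15a1* and *Col5a3* made 4 that were at least 2-fold lower, beside 6.42% and 7.17% of all genes. In replicate 1, removal left 1 member at least 2-fold higher, *Col4a5*, while *Col4a6* (0.92) and *Col25a1* (0.86) no longer passed that limit, and 2 were lower (*Col6a3* and *Col7a1*), beside 5.56% and 4.06% of all genes. The differences of *Col5a2* and *Col11a1*, of 49.6% and 48.0% GC, shrank from -0.80 and -0.70 to -0.38 and -0.14. Those of *Col5a1* and *Col2a1*, set beside them in the chain ratios, went from -0.10 and 0.24 to -0.17 and 0.09. The chains of each pair thus lay closer together in replicate 3 after removal.

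**Figure D4:**
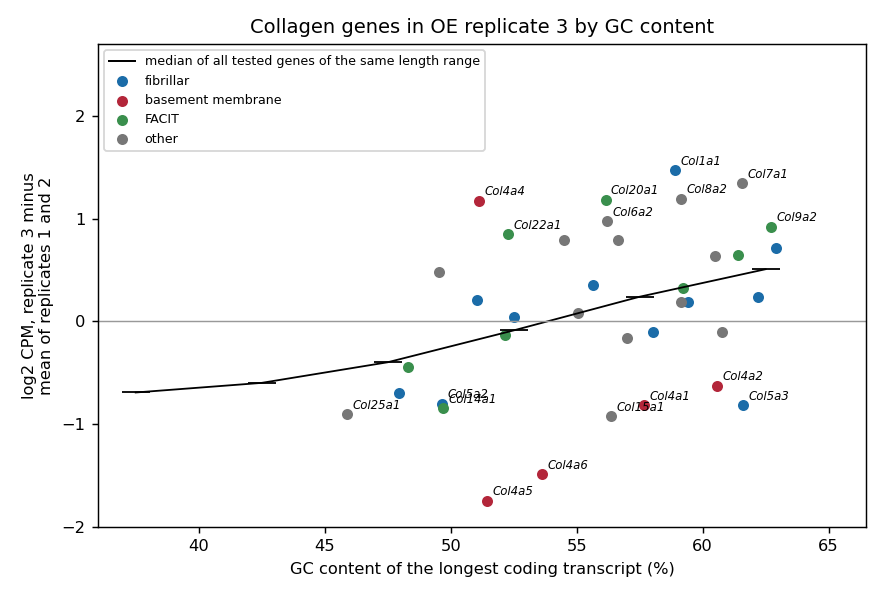
Difference of OE replicate 3 from the mean of replicates 1 and 2 (log2 CPM) for 37 collagen genes against the GC content of the longest coding transcript (%), coloured by type, with the median of all tested genes of similar exonic length in each GC class as a black line. *Col4a1* (-0.82) and *Col4a2* (-0.63) lie below the line at 57.7% and 60.6% GC, and *Col1a1* (1.47) lies above it.

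The genes that modify, secrete and process collagen were also described, as a list of 52 genes of which 50 had a mean count of at least 10. Of these 43 differed beyond counting noise and 16 (32.0%) had a ratio of 2 or more, near the 34.8% of all genes. The chaperone of procollagen *Serpinh1* (HSP47) was at 776, 743 and 730.1 CPM and *P4hb*, a subunit of prolyl 4-hydroxylase, at 561, 547 and 497 CPM. Per length their means were 969.8 ± 219 and 593 ± 149.8 TPM (SD, n = 3), beside 344 for *Col2a1*. With the coding transcript as length, *Serpinh1* (719) was above *Col2a1* (430.2) and *P4hb* (409) was below it. Among the 18 genes of hydroxylation and folding, *Plod2*, a lysyl hydroxylase, was at 46.1, 29.3 and 18.2 CPM, *P3h2*, a prolyl 3-hydroxylase of type IV collagen, at 10.4, 8.77 and 3.74 CPM, and *P3h3* at 55.6, 69.0 and 112 CPM. *P3h2* thus had the same order of libraries as *Col4a5* and *Col4a6*, and so had *Plod2*. Being lowest in replicate 3 was common, at 45.6% of all genes and 57.9% of genes within the members' range of exonic length.

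The 6 genes of procollagen secretion were all lower in replicate 3 than in the mean of the others, with a median log2 difference of -0.60, beside -0.03 over all genes. After removal of the trend on length and GC content, *Mia2* was at 0.04 and *Mia3* at -0.14, so they were no longer all lower. *Mia3* (TANGO1), which loads procollagen into carriers at the endoplasmic reticulum, was at 73.6, 71.6 and 52.3 CPM and *Mia2* at 79.3, 66.2 and 48.4 CPM. The coat proteins *Sec23a* and *Sec24d* were at 57.7, 47.3 and 27.6 CPM and at 18.1, 12.8 and 6.53 CPM. In processing, *Pcolce*, which enhances removal of the C-propeptide, was at 75.8, 97.5 and 188 CPM, *Bmp1*, the protease that removes it, at 108, 154 and 187 CPM, and the lysyl oxidase *Loxl1* at 6.35, 5.65 and 12.1 CPM. These 3 were highest in replicate 3 in CPM, but in TPM *Bmp1* was highest in replicate 2. Of the 13 processing genes tested, 5 were lower there than in the mean of the others, among them *Loxl2*, a lysyl oxidase, at 38.8, 30.6 and 19.9 CPM, and 2 were at least 2-fold higher and 2 at least 2-fold lower, beside 12.6% and 10% of all genes. *Tll2* was at 0 counts in every library, which allows up to 0.0843 CPM.

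In turnover, the gelatinase *Mmp2* was at 149, 175 and 184 CPM and *Mmp14*, which activates it, at 82.1, 74.2 and 98.5 CPM. The inhibitors *Timp1* and *Timp3* moved apart, at 3.26, 3.40 and 9.13 CPM and at 39.5, 34.8 and 19.7 CPM. Of the receptors, the discoidin domain receptors *Ddr2* and *Ddr1* were at 110.3, 108 and 79.6 CPM and at 49.1, 40.3 and 52.3 CPM, and the integrin subunit *Itga2* at 2.82, 3.62 and 1.75 CPM. Receptors had 1 of 6 genes with a ratio of 2 or more, and turnover had 3 of 7, beside 34.8% of all genes.

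A match to the seed of miR-29, which the choice by name did not use, was held by part of the collagen genes. The miR-29 microRNAs are known to repress collagen mRNAs through sites in the 3′ UTR, so matches to their seed were counted in the 3′ UTR of the longest coding transcript of each gene (GENCODE M21). The mature sequences of RefSeq are shown because all have the same seed, bases 2 to 8, in capitals.
mmu-miR-29a-3p: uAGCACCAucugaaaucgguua
mmu-miR-29b-3p: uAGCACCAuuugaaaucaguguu
mmu-miR-29c-3p: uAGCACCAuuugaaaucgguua
They come from *Mir29a* (chr6:31062673-31062694, minus strand), *Mir29b-1* and *Mir29b-2* (chr6:31063025-31063047, minus strand, and chr1:195037091-195037113, plus strand) and *Mir29c* (chr1:195037600-195037621, plus strand), all of GRCm38.p6. The poly-A libraries do not measure these microRNAs, and a match of 7 letters is a description and not a site shown to be used.

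The complement of the seed, TGGTGCT on the transcript strand, was in the 3′ UTR of 24 of 42 collagen genes with one (57.1%), against 13.0% of 21022 protein-coding genes and 15.5% of 14012 protein-coding genes tested. Per kilobase of 3′ UTR there were 0.696 matches in collagen genes and 0.107 in all. All 6 basement membrane genes and 9 of 11 fibrillar genes held it, against 3 of 9 FACIT and 6 of 16 other genes. *Col11a2* and *Col1a2* were the fibrillar genes without it in the transcript used. The matches of the main fibrillar and basement membrane genes are shown with the flanking bases, match in capitals, from mm10.
Col2a1 (chr15:97975676-97975698, minus strand): tcctacacaaTGGTGCTattctg
Col3a1 (chr1:45348972-45348994, plus strand): aatgtctcaaTGGTGCTataata
Col1a1 (chr11:94952528-94952550, plus strand): aaggaatttcTGGTGCTatagaa
Col4a1 (chr8:11199756-11199778, minus strand): cgtcacaacaTGGTGCTactccc
Col4a2, first (chr8:11448349-11448371, plus strand): aaggccacgtTGGTGCTtatcct
Col4a2, second (chr8:11448520-11448542, plus strand): acacccagctTGGTGCTtactct
Col4a5, first (chrX:141688243-141688265, plus strand): ctcccaccaaTGGTGCTaatatc
Col4a5, second (chrX:141688524-141688546, plus strand): ttctttttcaTGGTGCTactaat
Col4a5, last (chrX:141688947-141688969, plus strand): cttattattcTGGTGCTatgcaa
Col4a6 (chrX:141166509-141166531, minus strand): tccatccatcTGGTGCTaacatt
The matches of *Col4a1* and *Col4a2* begin 33 and 43 bases after the stop codon. *Col5a1*, *Col26a1* and *Col4a3* held 4 matches each, the most of any collagen gene. Genes with matches differed in level and in spread: *Col3a1* had the lowest ratio between libraries in CPM, *Col1a1* was highest and *Col4a5* lowest in replicate 3, and *Col4a3* was almost absent.

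**Figure D5:**
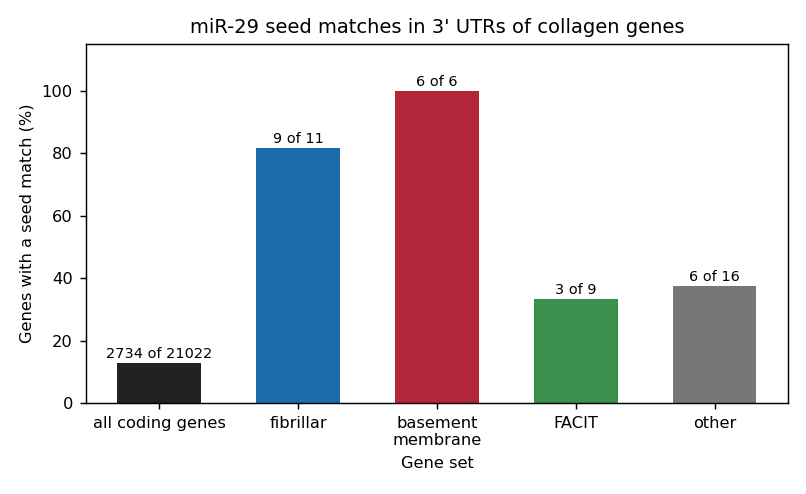
Percentage of genes with a match to the miR-29 seed in the 3′ UTR for all protein-coding genes and for the 4 collagen types, with the number of genes above each bar. The bars stand at 13.0% for all coding genes, 100% for basement membrane, 81.8% for fibrillar, 33.3% for FACIT and 37.5% for other collagen genes.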

How the data were processed

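RNA-Seq was performed on 3 OE maxillary process samples with poly-A selected libraries and 150 bp paired-end reads. The authors deposited raw counts per gene as whole numbers, without normalization. The submitters' processing notes name FastQC, STAR 2.7.3a, HTSeq 0.12.4 and mm10, while the annotation release and strand setting are not given in the sources used here. Rows that name no gene (14.2%, 15.7% and 16.4% of reads on no gene, 6.10% to 6.96% ambiguous) were left out. Symbols, types of gene, lengths and 3′ UTRs came from GENCODE M21 (GRCm38), in which 260 identifiers had no row.

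CPM used edgeR 4.0.16 with TMM factors of 1.06, 1.01 and 0.940. The 3 counts of each gene were compared with the scaled library sizes by a chi-square test with 2 degrees of freedom and Benjamini-Hochberg adjustment at 0.05, over the 17115 genes whose mean count was 10 or more. Log2 values had a prior count of 2. A smooth trend on both GC content and length came from mgcv 1.9.3. DESeq2 1.42.0 gave alternative size factors. The steps, run in R 4.3.3 and Python 3.11.15, were tested on simulated data. Each pair of libraries differed beyond counting noise in at least 48.8% of the genes, so none was counted as a copy.

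The members, lists and alternatives were chosen with earlier results of these data known. A fixed rule named 28 members for values in each library: the 5 highest by mean TPM of the fibrillar and other types, the 3 highest of the remaining types, chains of a ratio, and members with a ratio of 2 or more and a mean count of at least 100. *Col4a4*, *Col10a1*, *Col14a1* and *Col19a1* were added after their counts were seen. Pathway genes were named if among the most abundant of their list or past the same limits. Neighbouring genes and miR-29 matches were added to describe the members.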

Additional observations from a re-analysis of the deposited data

How the results depend on the processing

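Of 256 alternative values over 49 results, 238 moved by less than the spread between libraries or less than 1.5 times a count, 18 moved further and 0 reversed. Counts, shares, ratios and mean levels have no sign that could reverse. A mean of 3 values cannot move by as much as their SD when 1 is left out, so that outcome was fixed for means. With total counts, members with a ratio of 2 or more went from above all genes (45.9% against 34.8%) to below them (35.1% against 36.7%). The 140 alternative values of single genes all moved by less than the spread between libraries, but those that left out 1 library could not have moved further. Scaling by total counts, tried on the summed CPM of each type after seeing the data, moved the mean sums by less than that spread. Leaving out 1 library at a time, members with a ratio of 2 or more numbered 2 to 15 (17 with all libraries), and members at least 2-fold from the other libraries 2 to 15 for replicate 1 (4 with all), 2 to 9 for replicate 2 (2 with all) and 9 to 15 for replicate 3 (7 with all). Fewer libraries enter each of these values. For replicate 2 that number was 5 over all genes with at least 1 count, 1 with a mean CPM of at least 1 and 1 with the trend on length and GC content removed. With the longest coding transcript as length, the shares of collagen TPM were 50.1% for fibrillar, 12.6% for basement membrane and 6.18% for FACIT genes, and the ratios were 0.145 for *Col1a1*/*Col1a2*, 1.32 for *Col4a1*/*Col4a2*, 1.09 for *Col6a1*/*Col6a2*, 0.317 for *Col6a3*/*Col6a1*, 0.00665 for *Col11a2*/*Col2a1* and 2.01 for *Col4a5*/*Col4a6*. That choice changes only the length of each gene.

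No paired analysis was possible because the libraries form 1 group. Depth limits the 9 genes below 10 counts, for which absence is not shown. With 3 libraries of 1 genotype, no value bears on the effect of *Dlx2* overexpression. Gene length also limits TPM: the union of exons of *Col1a2* is 12426 bp and its longest coding transcript 5348 bp.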
